A study of Mus musculus with 8 samples.

Results

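Open chromatin of MLL-AF9 leukemia was compared here between 2 cohorts of wild-type or floxed and Dek-deleted mice, taken from 6 of the 8 ATAC-seq libraries of the study. The members were chosen by their labels. The first cohort comprised FL 1 and FL 2, of genotype Dekfl/fl, and KO 1 and KO 2, of genotype Dekfl/fl,MX1-Cre. The second cohort comprised FL 3, of genotype Dek+/+, and KO 3, of genotype Dekfl/fl;Tie2-Cre. All libraries came from bone marrow of mice with MLL-AF9-driven leukemia, sorted as c-Kit+, CD34+ and CD16/32+ cells without Sca-1 and lineage markers and called leukemia stem cells in the labels, with about 5000 cells per reaction and 13 to 16 PCR cycles. The 2 libraries with alanine at serines 306, 308, 311 and 312 of DEK (genotype Dek-Ser306A/Ser308A/Ser311A/Ser312A, 4S-A) took no part in the choice of regions and served only as held-out libraries.

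Cohort was confounded with other properties of the libraries. The Cre driver differed (Mx1-Cre is an interferon-inducible transgene active in hematopoietic and other cells, and Tie2-Cre is active in endothelium and blood cells). The control allele differed too, since Dekfl/fl stood in one cohort and Dek+/+ in the other. List length differed, and peaks on the Y-linked genes Kdm5d, Eif2s3y, Uty and Ddx3y were found in the second cohort alone, although the labels give no sex. Their parts in the differences below cannot be told apart. Libraries are named by their titles. Peak names inside the FL 1 and FL 2 lists begin with WT, and those inside the KO 1 and KO 2 lists carry other replicate numbers than the titles. The genotype with Mx1-Cre rests on the sample labels, because the design text names Tie2-Cre as the knockout driver. The labels do not say whether libraries came from separate animals, so p-values measure only the spread between these libraries, which may be technical.

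ATAC-seq inserts sequencing adapters into DNA that is not covered by nucleosomes, so that stretches with many insertions appear as peaks at promoters and enhancers. MLL-AF9 joins a histone methyltransferase to a partner of the transcription elongation machinery and keeps Hox and Meis genes active in myeloid progenitors. Leukemic granulocyte-macrophage progenitors (L-GMPs) are the cells that pass on this leukemia, and DEK is a nuclear protein that binds chromatin.

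The deposited peak lists were longer in the second cohort. They held 50518, 53804, 55270 and 72576 autosomal peaks in FL 1, FL 2, KO 1 and KO 2, and 89730 and 91180 in FL 3 and KO 3. The cohorts did not overlap, with means of 58042 ± 9891 (SD, n = 4) and 90455 ± 1025 (SD, n = 2). The exact two-sided permutation test gave p = 0.133, which is the smallest value that 4 libraries against 2 allow, so no comparison over these libraries could reach 0.05. Read depth is unknown. Every list was therefore limited to its 50518 strongest autosomal peaks by −log10 q, the length of the FL 1 list, which retained 100% of FL 1 and 55.4% of KO 3. The weakest peak retained had a −log10 q of 1.41, 3.47, 4.83 and 10.3 in the first cohort and of 15.9 and 18.2 in the second, and the first peak left out of each shortened list lay within rounding of the same value.

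Equal length did not make the lists alike. The median peak measured 320, 325, 342 and 403 bp in FL 1, FL 2, KO 1 and KO 2, and 636 and 605 bp in FL 3 and KO 3. The second-cohort peaks were wider in both libraries, by 273 bp on average (exact two-sided permutation test, p = 0.133). The 50518 peaks covered between 19.2 and 23.9 Mb in the first cohort and 35.6 and 34.7 Mb in the second. A wider peak overlaps a peak of another library more easily, and the part of width in the counts below was examined only by replacing peaks with windows around their summits.

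**Figure D1:**
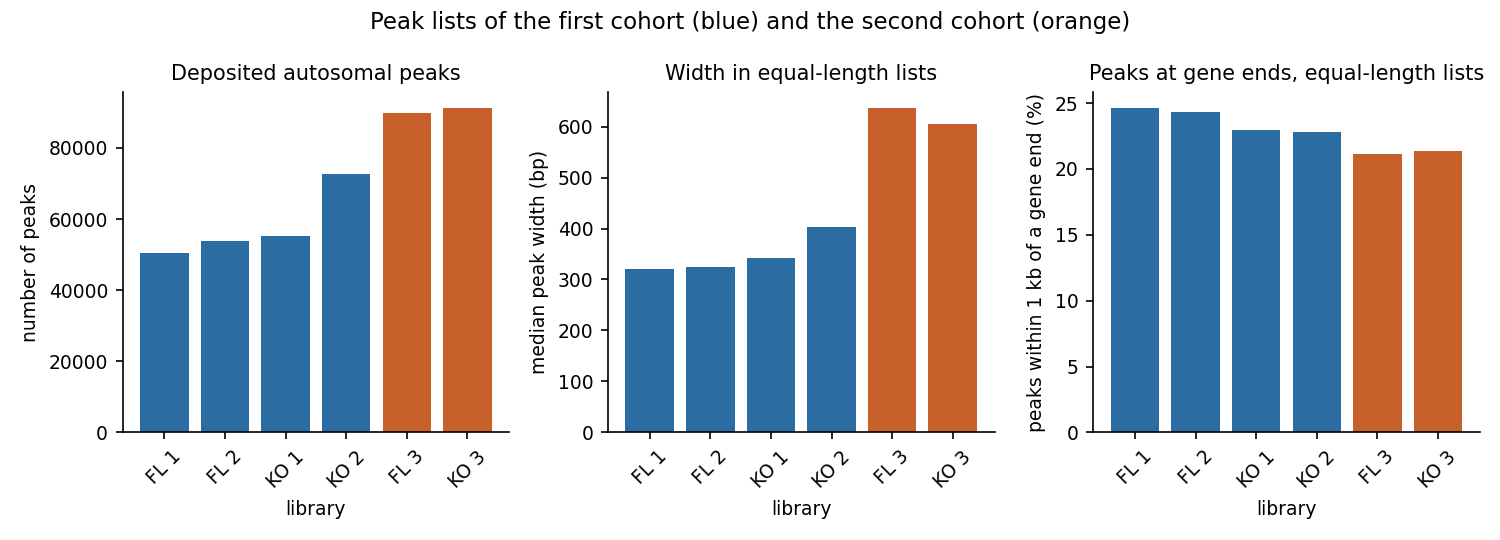
Bars show, for each library (x axis), the number of deposited autosomal peaks, the median peak width in bp after lists were set to 50518 peaks, and the percent of those peaks whose summit lay within 1 kb of a gene end. Second-cohort libraries (orange) had the longest lists, the widest peaks and the lowest gene end shares, at 21.2% and 21.3%.

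Merging the 6 shortened lists gave 76531 regions. All 6 libraries shared 29723 of them (38.8%), and 18674 (24.4%) came from 1 library. A region was called first-cohort-only when all of FL 1, FL 2, KO 1 and KO 2 held a peak in it and neither FL 3 nor KO 3 did, and second-cohort-only in the reverse case. Of the 32714 regions held by all 4 first-cohort libraries, 1255 were first-cohort-only, which is 3.84%. Of the 43715 held by both second-cohort libraries, 3232 were second-cohort-only, which is 7.39%. These counts depend on how many libraries must hold or lack a region. With 2 libraries on each side, a control and a knockout of the first cohort were set against FL 3 and KO 3. The same regions then gave 2372 to 2617 first-cohort-only regions, and 4859 to 5126 second-cohort-only regions out of the same 43715. The genotype split inside the first cohort was also 2 libraries against 2. FL 1 and FL 2 but neither knockout held 1880 regions, 5.02% of those held by both controls. KO 1 and KO 2 but neither control held 3207, 7.87% of those held by both knockouts.

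Pairs of libraries shared more within a cohort than between cohorts at the level of rank. The Spearman correlation of peak percentiles over the regions held by all 6 libraries, which is across regions and a description only, was 0.849 to 0.913 within the first cohort, 0.913 within the second and 0.747 to 0.794 between cohorts. The Jaccard index, the number of regions shared over the number held by either, was 0.633 to 0.736 within the first cohort, 0.772 within the second and 0.598 to 0.676 between them, so that the 2 ranges overlapped.

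Most cohort-only regions were weak peaks. Strength is given as the mean percentile of a region among the 50518 peaks of the libraries that hold it, where 100 is the strongest. Its median was 33.8 in first-cohort-only regions and 23.9 in second-cohort-only regions, against 64.0 and 52.5 in all regions held by the respective cohort. A strength of 50 or more was reached by 210 first-cohort-only regions (16.7%) and 263 second-cohort-only regions (8.14%).

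Absence from a shortened list was often presence below its limit. FL 3 had a deposited peak in 1068 of the 1255 first-cohort-only regions (85.1%) and KO 3 in 1022 (81.4%). Both held 925 (73.7%), and 90 (7.17%) were absent from both full lists. In the other direction, 1970 of the 3232 second-cohort-only regions (61.0%) had no deposited peak in any first-cohort library. KO 2, whose list is the longest of the first cohort, held 1182 of them (36.6%), against 180 in KO 1, 60 in FL 2 and 0 in FL 1, whose list was not shortened.

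The held-out 4S-A libraries, which the labels' design text places beside FL 3 and KO 3, resembled the second cohort in the cohort-only regions. At equal list length 4S-A 1 held 71.9% of the second-cohort-only regions (95% Clopper-Pearson interval 70.4 to 73.5%) and 4S-A 2 held 69.5% (67.9 to 71.1%). Of the first-cohort-only regions they held 12.3% (10.5 to 14.2%) and 13.7% (11.8 to 15.7%). These intervals cover counting error over regions only. For reference, 4S-A 1 and 4S-A 2 held 59.7% and 59.3% of all regions. They held 89.98% and 89.28% of the regions held by both second-cohort libraries. Of the regions held by all 4 first-cohort libraries they held 88.7% and 88.4%. The shares of second-cohort-only regions thus lay above those of all regions and below those of all regions their cohort held. The shares of first-cohort-only regions lay below both references. Both mutant libraries held 62.0% of the second-cohort-only regions and neither held 83.3% of the first-cohort-only regions. Their deposited lists were also long, with 104758 and 94877 peaks, so list length moves with this result as well, and its part was not tested.

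**Figure D2:**
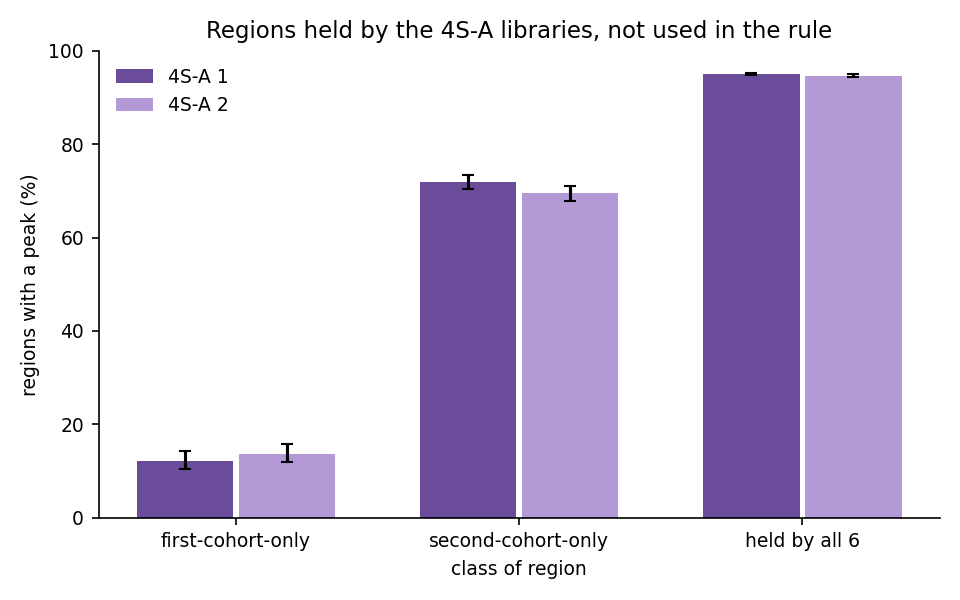
Bars show the percent of first-cohort-only regions, second-cohort-only regions and regions held by all 6 libraries (x axis) that had a peak in each 4S-A library at equal list length, with 95% Clopper-Pearson intervals as error bars. Both 4S-A libraries held about 70% of second-cohort-only regions (71.9% and 69.5%) and under 14% of first-cohort-only regions.

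Promoter sequences are shown for the strongest start-site regions of each cohort-only set, as examples of the letters counted below. No genome was used here, so the stretch of 250 bases before the start site was taken from RefSeq promoter windows of GRCm38.p6, the assembly also called mm10. They are shown 5′ to 3′ with CpG dinucleotides in capitals. Mei4 (a meiotic DNA break protein), Stx1a (syntaxin of synaptic vesicle release) and Dmwd (a WD-repeat protein) carried the strongest first-cohort-only regions at a start site in this table. Ccdc89 (a coiled-coil protein), BC024063 (a gene of no known role) and Eps8l1 (an actin regulator related to EPS8) carried the strongest second-cohort-only ones, and Ngp (neutrophilic granule protein) was added after its values were seen, as a granulocyte gene.
Mei4, chr9:81863420-81863669, plus strand: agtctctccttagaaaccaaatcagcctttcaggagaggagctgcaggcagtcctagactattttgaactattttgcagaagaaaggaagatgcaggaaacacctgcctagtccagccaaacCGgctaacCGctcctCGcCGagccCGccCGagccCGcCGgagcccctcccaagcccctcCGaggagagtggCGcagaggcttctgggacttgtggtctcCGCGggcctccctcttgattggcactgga
Stx1a, chr5:135023232-135023481, plus strand: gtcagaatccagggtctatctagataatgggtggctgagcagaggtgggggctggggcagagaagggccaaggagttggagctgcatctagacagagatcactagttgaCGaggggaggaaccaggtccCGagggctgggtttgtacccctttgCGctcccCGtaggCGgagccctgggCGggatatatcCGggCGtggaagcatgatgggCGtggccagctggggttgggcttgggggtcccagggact
Dmwd, chr7:19075950-19076199, plus strand: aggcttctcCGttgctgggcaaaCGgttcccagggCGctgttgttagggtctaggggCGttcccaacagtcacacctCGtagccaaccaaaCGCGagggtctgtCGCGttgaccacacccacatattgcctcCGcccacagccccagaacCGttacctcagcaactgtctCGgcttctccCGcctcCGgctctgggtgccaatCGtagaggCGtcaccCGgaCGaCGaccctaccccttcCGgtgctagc
Ccdc89, chr7:90426062-90426311, plus strand: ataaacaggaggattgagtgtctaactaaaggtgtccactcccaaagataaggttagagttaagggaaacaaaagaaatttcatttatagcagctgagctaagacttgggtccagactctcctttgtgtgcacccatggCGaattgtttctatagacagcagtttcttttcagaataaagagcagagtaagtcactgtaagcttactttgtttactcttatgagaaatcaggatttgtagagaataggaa
BC024063, chr10:82083070-82083319, plus strand: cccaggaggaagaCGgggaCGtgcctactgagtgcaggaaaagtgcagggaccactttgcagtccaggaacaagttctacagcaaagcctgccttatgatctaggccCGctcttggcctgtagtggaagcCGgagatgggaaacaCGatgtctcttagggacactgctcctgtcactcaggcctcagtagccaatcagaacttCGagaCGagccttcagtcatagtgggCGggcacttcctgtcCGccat
Eps8l1, chr7:4460447-4460696, plus strand: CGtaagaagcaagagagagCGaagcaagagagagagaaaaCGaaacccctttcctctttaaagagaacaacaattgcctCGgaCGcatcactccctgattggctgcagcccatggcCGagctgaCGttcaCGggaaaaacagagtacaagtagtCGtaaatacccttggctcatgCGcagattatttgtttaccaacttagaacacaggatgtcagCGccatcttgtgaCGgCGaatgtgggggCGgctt
Ngp, chr9:110419558-110419807, plus strand: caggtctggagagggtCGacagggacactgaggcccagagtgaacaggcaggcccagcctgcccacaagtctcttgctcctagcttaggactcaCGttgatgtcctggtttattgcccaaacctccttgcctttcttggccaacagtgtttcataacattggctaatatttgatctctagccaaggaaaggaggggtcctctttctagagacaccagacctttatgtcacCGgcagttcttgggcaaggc
The Mei4, Stx1a and Dmwd stretches held 12, 9 and 20 CpG and had a GC content of 58.8%, 62% and 62.4%. Those of Ccdc89, BC024063, Eps8l1 and Ngp held 1, 9, 14 and 3 CpG at a GC content of 38%, 56%, 49.6% and 52.4%. CpG numbers thus overlapped between the examples of the 2 sets, while their GC values did not. The median over all 31396 promoter windows of the table was 6 CpG and 52.4% GC, and over the windows in regions held by all 6 libraries 17 CpG and 61.2% GC.

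Over the promoters analysed, second-cohort-only regions were poor in CpG, while first-cohort-only regions were near the other promoters their cohort held. Promoters of chromosome 18 were not analysed here. CpG content was not compared at like strength, and cohort-only regions were weaker than all regions their cohort held. In windows of 300 bases, which add 50 bases after the start site, the 87 promoters in first-cohort-only regions had a median of 19 CpG and 64.7% GC, against 22 CpG and 61.7% in regions held by all 4 first-cohort libraries. The 63 promoters in second-cohort-only regions had a median of 5 CpG and 50.3% GC, against 21 CpG and 61.3% in regions held by both second-cohort libraries and 7 CpG and 53.0% in all windows. Letters of known factor motifs were counted on both strands. GGGCGG, the core bound by SP factors, was found in 64.4% of the first-cohort-only promoters, against 67.7% of those held by the first cohort. In second-cohort-only promoters it was found in 27.0%, against 66.0% of those held by the second cohort and 36.0% of all windows. TGTGGT, the core bound by RUNX factors, was found in 9.20% of first-cohort-only promoters against 13.0%, in 28.6% of second-cohort-only promoters against 13.2%, and in 16.7% of all windows. GGAAGT, an ETS core, was found in 17.2% against 30.0%, in 33.3% against 30.3%, and in 23.9% of all windows. A match is a description of letters, not a bound site, and GGGCGG is counted within the same letters that set the CpG and GC values.

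Gene end regions, whose summit is at most 1 kb from the start or the far end of a protein-coding gene, were less frequent in both cohort-only sets than in all regions of the same cohort. They made up 132 of 1255 first-cohort-only regions (10.5%, interval 8.87 to 12.3%), against 29.4% of all regions held by the 4 first-cohort libraries. They made up 146 of 3232 second-cohort-only regions (4.52%, interval 3.83 to 5.29%), against 23.3% of all regions held by both second-cohort libraries. Cohort-only regions were weak and gene ends are strong, so the shares were set beside regions of like strength. Below the 25th percentile the first-cohort-only share was 13.3% (interval 9.75 to 17.5%) against 14.7%. Between the 25th and 50th, which held 729 of the 1255 regions, it was 10.7% (8.55 to 13.2%) against 12.8%, so that both intervals included the share at like strength. Between the 50th and 75th, with 199 regions, it was 6.03% (3.15 to 10.3%) against 18.5%. In second-cohort-only regions the shares in these 3 ranges were 5.00% against 7.98%, 4.16% against 9.57% and 3.15% against 17.8%, each with an interval below the share at like strength. With summit windows of 100 bp on either side in place of peaks, the first-cohort-only share was 23.5% against 29.2%, and with peaks ranked by fold enrichment it was 21.1% against 29.5%. The second-cohort-only share was then 6.52% against 23.1% and 3.56% against 21.6%.

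Whole lists differed in the same respect. Gene ends took 24.6%, 24.3%, 23.0% and 22.8% of the 50518 peaks in FL 1, FL 2, KO 1 and KO 2 and 21.2% and 21.3% in FL 3 and KO 3. The cohorts did not overlap, and the second was lower by 2.43 percentage points (exact two-sided permutation test, p = 0.133). In the deposited lists the difference was -7.10 points.

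Named genes illustrate the first-cohort-only set. Its strongest region lay inside Smo, the signal transducer of the Hedgehog pathway, at percentiles of 92.8, 87.1, 86.6 and 73.8 in FL 1, FL 2, KO 1 and KO 2. All 4 first-cohort libraries were high there, while FL 3 and KO 3 held a deposited peak at only the 5.8th and 38.4th percentile of their full lists. The next was inside Cdk5rap2, a centrosome protein, at 91.3, 93.3, 86.5 and 66.0, and one followed inside Acvrl1, an endothelial receptor of the TGF-beta family, at 88.6, 85.1, 85.5 and 68.2. KO 2 was the lowest library at these 3 regions. Regions near Tox3 (an HMG-box protein), Top1 (topoisomerase I) and Olfr1028 (an odorant receptor) were also among the 15 strongest, which ranged from 70.5 to 85.1 in strength.

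First-cohort-only gene ends included Aff1, which encodes AF4, itself a fusion partner of MLL in human leukemia, at 75.5, 77.0, 42.0 and 40.0. Tpm4, a tropomyosin of the cytoskeleton, stood at 75.9, 72.1, 26.6 and 51.1. In both genes the 2 controls ranked above the 2 knockouts. Sfi1, a centrosome protein, had the most first-cohort-only regions of any gene, 4, out of 26 regions, and the libraries held 21, 20, 14 and 8 of them in the first cohort (FL 1, FL 2, KO 1, KO 2) and 3 each in the second. Tox3, Map4k4, Calml3, Bach2, Papola, Cxxc5 and Fos had 3 each. In all, 1022 genes lay nearest to a first-cohort-only region within 100 kb, and 114 of them had more than 1.

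The strongest second-cohort-only region lay near Smoc1, a secreted calcium-binding matrix protein, at chr12:81018499-81019955. It ranked at 93.9 in FL 3 and 95.6 in KO 3, and the 4S-A libraries held it at 89.3 and 69.8. Smoc1 had 6 second-cohort-only regions in all. A region near Cd24a, a surface glycoprotein of immature blood cells, stood at 67.2 and 84.1, with 79.6 and 81.8 in the 4S-A libraries. A region near Wt1, a zinc finger transcription factor often active in acute myeloid leukemia, stood at 71.3 and 74.9, with 70.6 and 55.6 in the 4S-A libraries. F13a1, the A subunit of coagulation factor XIII and a monocyte gene, stood at 70.9 and 80.0. Each of these 4 regions was thus in the upper range of both second-cohort lists and present in both held-out libraries.

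The second-cohort-only gene ends are given by their strongest members. Rnf17, a Tudor domain protein of male germ cells, led at 66.8 and 78.5, Figla, an oocyte transcription factor, stood at 52.6 and 62.4, and Pnliprp1, a pancreatic lipase relative, at 50.8 and 57.1. Rbm28, a nucleolar RNA-binding protein, and Srp9, a subunit of the signal recognition particle, were also among the 8 strongest. Lrmda had the most second-cohort-only regions, 9 of 29, followed by Fstl4 with 8 of 25 and Syne1, a nuclear envelope spectrin, with 6 of 27. In all, 2400 genes lay nearest to a second-cohort-only region within 100 kb, 461 of them had more than 1, and 263 genes had cohort-only regions of both kinds.

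Cohort-only regions were spread over every autosome. The first-cohort-only share ranged from 2.70% on chromosome 11 to 4.77% on chromosome 18, and the second-cohort-only share from 5.79% on chromosome 17 to 10.3% on chromosome 12. In windows of 5 Mb the second-cohort-only share had a median of 7.36% and reached 21.3%, 16 of 75 regions, at chr2:60000001-65000000. The first-cohort-only share had a median of 3.70% and reached 14.3%.

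The 29723 regions held by all 6 libraries allow the cohorts to be compared by rank. A region was counted as ranked apart when the percentiles of the 4 first-cohort libraries and the 2 second-cohort libraries did not overlap. This applied to 6257 regions that were higher in the first cohort (21.1%) and to 6086 that were higher in the second (20.5%). Between cohort means, the median shift (second minus first, in percentile points) was 0.18, with quartiles of -7.80 and 7.74. Of the regions ranked apart, 1039 were higher in the first cohort by 30 points or more and 677 were higher in the second by as much. The even split depends on the ranking, since with fold enrichment it became 10376 higher in the first and 4835 in the second. With full lists it was 1976 and 15939, but percentiles in the longer second-cohort lists are raised by their added weak peaks, so that this count is set in part by list length.

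**Figure D3:**
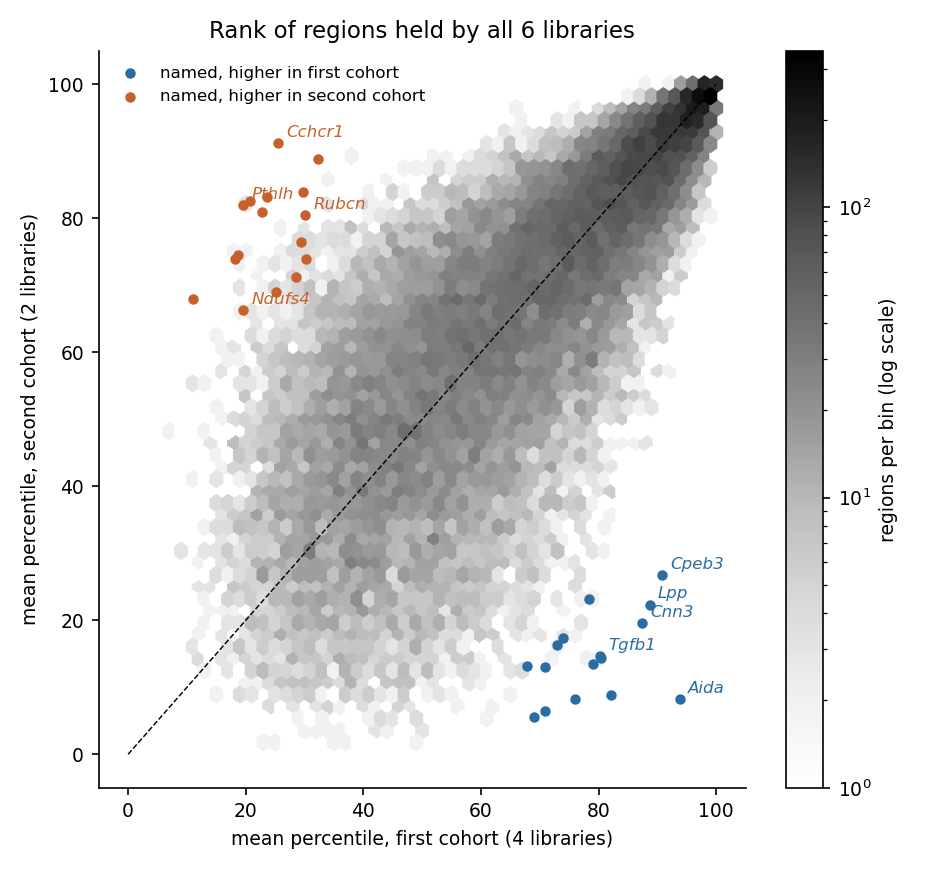
Each bin shows the number of regions held by all 6 libraries (grey, log scale) by mean percentile in the first cohort (x axis) and the second cohort (y axis), and colored points are the named regions with the widest shifts in each direction. Most regions lie near the dashed line of equal rank, and named regions such as Aida (93.8 and 8.24) and Cchcr1 (25.5 and 91.2) lie far from it.

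The widest shift toward the first cohort was inside Aida, a protein that binds axin, at 97.6, 96.6, 96.7 and 84.1 in FL 1, FL 2, KO 1 and KO 2 and at 16.1 and 0.4 in FL 3 and KO 3. Among gene ends, Tgfb1, the cytokine TGF-beta 1, stood at 83.3, 83.3, 80.4 and 74.1 against 6.1 and 23.1. Cnn3, an actin-binding calponin, stood at 93.0, 84.9, 87.7 and 83.8 against 11.9 and 27.3. In these 3 regions every first-cohort library lay above the 74th percentile and both second-cohort libraries below the 28th. Cpeb3, an RNA-binding translation factor, was less uniform, at 89.9 to 91.7 in the first cohort and 5.5 and 48.0 in the second, and its 4S-A values of 80.3 and 75.4 lay nearer to the first.

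Toward the second cohort, the end of Cchcr1, a coiled-coil centrosome protein, stood at 47.6, 4.2, 10.2 and 39.9 in FL 1, FL 2, KO 1 and KO 2 and at 89.3 and 93.1 in FL 3 and KO 3. Rubcn, an inhibitor of autophagy, stood at 35.1, 32.3, 16.1 and 36.9 against 80.5 and 80.5. Ndufs4, a subunit of respiratory complex I, stood at 29.3, 11.4, 17.2 and 20.4 against 69.1 and 63.6. First-cohort values varied most at Cchcr1, while at all 3 genes the second-cohort values were high and close. Away from gene ends, Mcu (the mitochondrial calcium uniporter) and Kdm4b (a histone demethylase) were among the 8 largest shifts, and a region inside Mcu stood at 13.6, 18.3, 2.2 and 10.3 against 68.4 and 67.4.

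CpG content moved with rank among promoters that all 6 libraries held. When these promoters were ranked by CpG number and divided into 5 groups of equal size, the median shift was 1.23 points in the group with the fewest CpG and -2.12 in the group with the most. Regions higher in the first cohort made up 19.5% of the former and 34.3% of the latter, and those higher in the second 24.2% and 11.6%. Promoters ranked higher in the second cohort held the ETS core GGAAGT in 43.5% of cases and those higher in the first in 24.0%, while GGGCGG stood at 55.5% and 78.3%. Over all promoters held by the 6 libraries the shares were 30.3% and 67.7%. In the same order, the 2 groups had a median of 19 and 24 CpG and 57.7% and 65.0% GC. Motif shares were not compared at like CpG or GC content.

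Markers of the sorted population were examined next. All 12 genes fixed as markers of the gate and of granulocyte-monocyte progenitors (Kit, Cd34, Fcgr3, Fcgr2b, Mpo, Elane, Prtn3, Ctsg, Cebpa, Csf1r, Irf8 and Flt3) had a peak at a gene end in all 6 libraries. Of genes that the gate should lack, 6 are described here (Ly6a, Cd3e, Cd4, Cd8a, Ms4a1 and Ly6g). None of these 6 had one in all 6 libraries, and 4 had none in any. Rank differed between cohorts at many of these ends: of 15 held by all 6 libraries, 7 ranked higher in the first cohort, 2 higher in the second and 6 overlapped. Over all 9251 gene end regions of this kind, 25.8% were higher in the first and 19.6% in the second.

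Cd34, the stem and progenitor surface protein used in the sort, showed one of the wider differences at its start, which ranked at 83.7, 83.1, 80.0 and 80.2 in FL 1, FL 2, KO 1 and KO 2 and at 22.5 and 48.2 in FL 3 and KO 3. Mpo, the myeloperoxidase of primary granules, stood at 61.5, 43.0, 79.2 and 74.9 against 2.3 and 21.3. Ctsg, the granule protease cathepsin G, stood at 78.4, 76.9, 84.3 and 77.0 at its start against 52.7 and 51.7. At each of these 3 starts all first-cohort libraries were above both second-cohort libraries. Other regions of the same genes did not all follow: of 7 regions of Cd34 held by all 6 libraries, 2 ranked higher in the first cohort and 2 in the second, with a median shift of -0.87 points, and 1 further region was second-cohort-only. Of the 2 such regions of Mpo, 1 ranked higher in each cohort. The shift of -46.4 points at Cd34 and of -52.8 at Mpo compares with a median of -0.41 over all gene end regions, of which 1.92% were lower in the second cohort by 30 points or more. Fewer cells of a type and less open chromatin per cell cannot be told apart in such pooled cells.

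Irf8, a transcription factor that directs monocytes and dendritic cells, stood at 79.8, 88.6, 71.6 and 85.7 at its start against 63.6 and 51.9. Kit, the stem cell factor receptor of the sort, stood at 85.4, 88.4, 88.9 and 86.1 against 75.9 and 77.1. Csf1r, the macrophage colony-stimulating factor receptor, went the other way, at 14.4, 32.2, 26.2 and 46.6 at its end of lower coordinate against 56.0 and 55.0. Cebpa, the master regulator of granulocyte commitment, overlapped between cohorts, at 90.2, 90.6, 91.3 and 87.6 against 88.1 and 85.7. Peak ranks at the Elane and Fcgr3 starts overlapped as well. Ranked by fold enrichment, 6 marker ends were held by all 6 libraries, and those of Cd34, Mpo and Ctsg were not among them. The higher-coordinate end of Csf1r, at 79.4, 80.6, 90.3 and 88.7 against 92.1 and 93.3 by −log10 q, then turned to 72.7, 74.1, 85.0 and 75.1 against 62.6 and 61.1, and Cebpa separated, at 64.7 or more against 32.6 and 26.5. In the full lists, whose length raises second-cohort percentiles, Cd34 and the Ctsg start ranked apart in the same direction, and Mpo overlapped, at 61.5, 46.5, 81.0 and 82.5 against 45.0 and 56.4. These 2 were the only ends higher in the first cohort there, while 5 were higher in the second and 8 overlapped. Kit and Irf8 were among those that overlapped, though both stayed higher in the first cohort by fold enrichment. With the 25000 strongest peaks no end of Cd34 or Mpo was held by all 6 libraries.

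**Figure D4:**
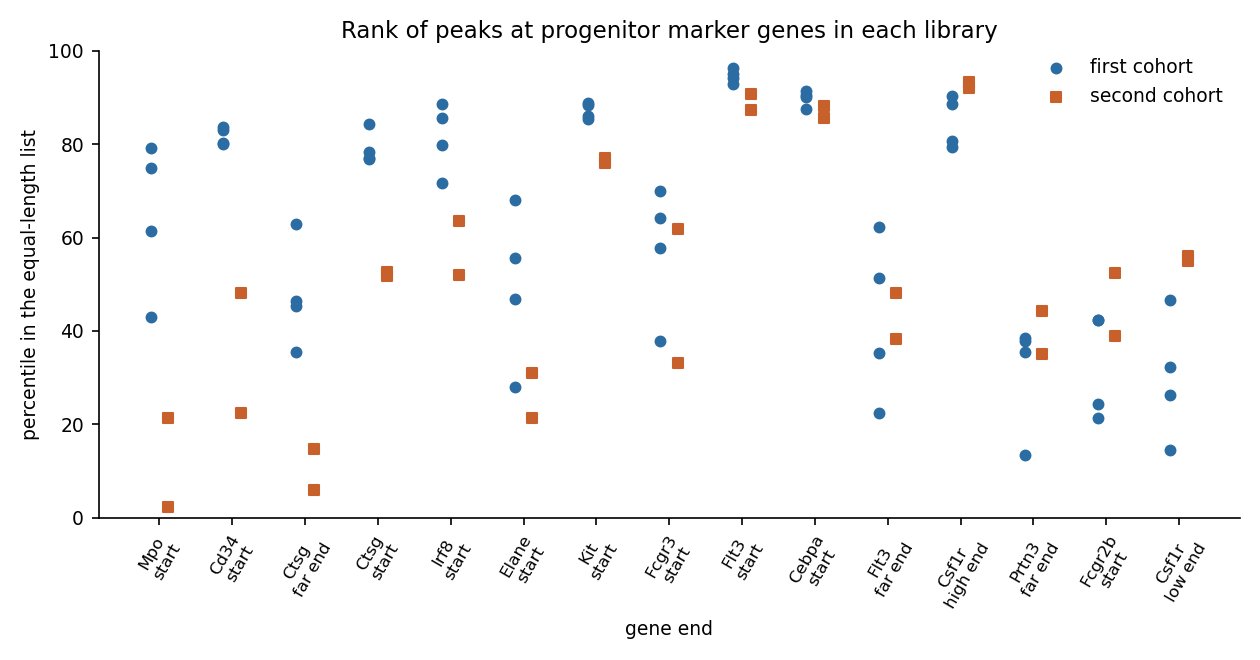
Points show the percentile (y axis) of the peak at each end of the progenitor marker genes held by all 6 libraries (x axis), with first-cohort libraries as blue circles and second-cohort libraries as orange squares, ordered by the difference of the cohort means. Csf1r ends are named by coordinate because its strand was not in the table used. Mpo, Cd34 and Ctsg lie to the left, with all first-cohort points above both second-cohort points.

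Gene lists of lineages and programs were described by their counts, beside 3.84% and 7.39% for all regions. B cell genes had 9 first-cohort-only regions of 39 held (23.1%) and 8 second-cohort-only of 45 (17.8%). The first-cohort-only ones lay at Dntt, the terminal transferase of lymphoid progenitors (3 regions), and at Bach2, a transcriptional repressor that acts in B cells (3). Il7r, the interleukin-7 receptor, had 1, and the rest lay at other genes of the list. The second-cohort-only ones included 3 at Cd24a and 1 each at Bach2 and Il7r. A Bach2 intragenic region stood at 68.6, 64.8, 58.5 and 60.2 in the first cohort. B cell genes were thus a place of difference in both directions, while Ms4a1, a B cell surface protein, had no gene end peak in any library.

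Granulocyte genes had 0 first-cohort-only regions of 41 and 7 second-cohort-only of 59 (11.9%). The 7 lay at Ngp (2), Mmp9, a gelatinase of neutrophil granules (2), Cebpa (2) and Ltf, lactoferrin (1). The end of Ngp held its peak at 48.2 and 38.4 in FL 3 and KO 3 and at 56.2 and 44.1 in the 4S-A libraries. Interferon response genes had 0 of 22 and 3 of 36 (8.33%), the latter near the 7.39% over all regions. The 3 lay at Ifi27, Ifih1 and Usp18, and a region inside Ifi27 stood at 55.4 and 51.3. Ly6g, the surface marker of mature neutrophils, had no gene end peak in any library. Ranked by fold enrichment the granulocyte counts turned, to 11 of 41 first-cohort-only and 2 of 36 second-cohort-only regions, while the interferon counts were 1 of 21 and 3 of 38.

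Dendritic cell genes had 5 first-cohort-only regions of 60 (8.33%) and 1 second-cohort-only of 68 (1.47%), beside 3.84% and 7.39% over all regions. The 5 lay at Tcf4, the factor of plasmacytoid dendritic cells (2), at Cd74, the invariant chain of antigen presentation (1), at Flt3 (1) and at 1 other gene. Of the 54 regions held by all 6 libraries, 19 (35.2%) were higher in the first cohort and 3 (5.56%) in the second, against 21.1% and 20.5% of all regions. Housekeeping genes, a list of no lineage, had a like share higher in the first, 13 of 37 (35.1%), and 7 (18.9%) higher in the second. The dendritic split depended on the setting. By fold enrichment it was 12 and 9 of 47 regions, where all regions gave 10376 and 4835. With full lists, where list length raises second-cohort percentiles, it was 5 and 22 of 59. The 25000 strongest peaks gave 6 and 2 of 19, and summit windows 19 and 3 of 53. AP-1 and immediate early genes had 6 of 98 (6.12%) and 2 of 101 (1.98%), with 31 of 86 regions (36.0%) higher in the first cohort and 10 (11.6%) in the second. Fos had 3 of the 6, and the one at its gene end stood at 52.2, 53.1, 63.3 and 51.8. Jun, the partner of Fos in AP-1, had 1 at its gene end at 34.1, 54.0, 39.7 and 50.4. KO 3 had no deposited peak in the Fos gene end region, and FL 3 held one at the 7.7th percentile. Both regions rest on the ranking, since by fold enrichment only FL 1 held a peak in the Fos region, at 2.2, and in the Jun region, at 0.1.

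**Figure D5:**
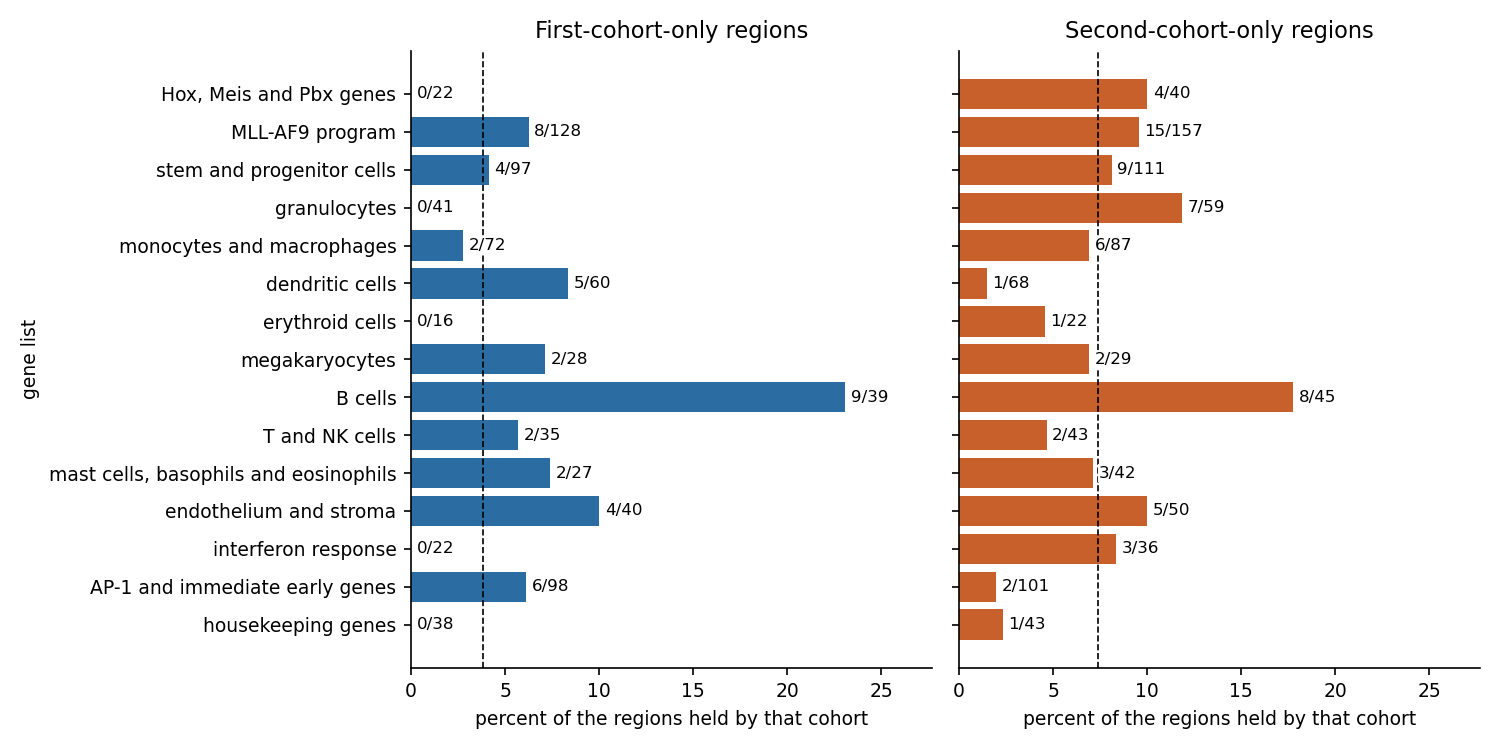
Bars show, for each gene list (y axis), the percent of the regions held by the first cohort that were first-cohort-only (left) and of those held by the second that were second-cohort-only (right), with counts beside the bars and the share over all regions as a dashed line (3.84% and 7.39%). B cell genes exceed the dashed line on both sides, at 23.1% and 17.8%.

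The genes of the MLL-AF9 program had 8 first-cohort-only regions of 128 (6.25%) and 15 second-cohort-only of 157 (9.55%). Dach1, a transcription factor of the leukemic program, had 4 of the latter and Cdk6, a cell cycle kinase that MLL leukemia relies on, had 2 of each kind. Among the 107 regions held by all 6 libraries 39 (36.4%) were higher in the first cohort and 10 (9.35%) in the second, beside 21.1% and 20.5% of all regions and 35.1% and 18.9% for housekeeping genes. Their median shift was -6.46 points, and that of housekeeping genes was -2.57. Stem and progenitor genes had 26 of 84 (31.0%) higher in the first and 10 (11.9%) in the second, and a median shift of -6.60. Runx1, a regulator of blood stem cells, had 2 first-cohort-only regions and 1 second-cohort-only region. Kit had 0 and 3, and one near Kit stood at 65.3 and 66.8. With full lists, where list length raises second-cohort percentiles, the 2 lists had 9 and 46 and 8 and 31 regions higher in the first and second cohort. Cohort-only counts depended on the setting too. By fold enrichment MLL-AF9 genes had 29 of 120 first-cohort-only and 16 of 118 second-cohort-only, beside 8.89% and 10.2% over all regions. Stem and progenitor genes, with 4 of 97 and 9 of 111 at the main setting, then had 18 of 85 and 10 of 87. The 25000 strongest peaks gave 13 of 62 and 3 of 64, and 10 of 52 and 4 of 48. Full lists gave 0 of 137 and 66 of 302, and 0 of 97 and 36 of 183.

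Hox, Meis and Pbx genes had 0 first-cohort-only regions of 22 and 4 second-cohort-only of 40 (10.0%), at Meis1 (2), Hoxa13 and Hoxa9. In FL 3 and KO 3 the Hoxa9 region ranked at 3.0 and 3.4, near the limit of the lists, and the Hoxa13 region at 16.6 and 11.3. Those at Meis1 stood at 41.4 and 5.3 and at 19.5 and 20.1. Ranked by fold enrichment the Hox, Meis and Pbx genes had 6 of 22 and 2 of 32. Meis1, the cofactor of HOXA9, had a region inside the gene at chr11:18930219-18930971 at 49.4, 30.0, 32.1 and 0.5 in FL 1, FL 2, KO 1 and KO 2 and at 80.8 and 74.0 in FL 3 and KO 3. The 4S-A libraries held it at 79.2 and 73.6, near the second cohort. Of 6 Meis1 regions held by all 6 libraries, 3 ranked higher in the second cohort and 1 in the first. That 1 was a gene end region at chr11:19018548-19020031, at 83.3, 83.6, 79.9 and 84.1 against 79.5 and 73.3. Hoxa9 itself had a region at 82.5, 70.9, 58.1 and 55.4 against 46.5 and 41.6, higher in the first cohort. Regions of Pbx3, a HOX cofactor named in the study's title, overlapped between cohorts wherever all 6 libraries held them, and the one at its gene end ranked between 93.8 and 98.3 in all 6.

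Spi1, the gene of the myeloid master factor PU.1, had 4 regions held by all 6 libraries. Of these, 1 ranked higher in the first cohort, 1 in the second and the others overlapped, beside 21.1% and 20.5% of all such regions ranked apart. Spi1 also had a first-cohort-only region at chr2:91086347-91086686, at 65.3, 51.3, 53.6 and 61.3 in FL 1, FL 2, KO 1 and KO 2. The region at chr2:91082193-91083698 stood at 80.8, 80.6, 79.7 and 78.2 against 57.8 and 56.0, and that at chr2:91089046-91089736 at 28.6, 43.1, 10.4 and 24.0 against 66.7 and 67.4. Each of the 3 separated the cohorts without overlap. Mecom, the stem cell factor EVI1, had a first-cohort-only region at 44.0, 38.3, 51.4 and 44.5, and several of its regions were held by FL 3 alone. Dek had a region held by all 6 libraries, at 75.7, 77.0, 62.5 and 61.3 against 68.3 and 73.7, which overlapped. Tek, the gene whose promoter drives Tie2-Cre, had no region. A region at the Mx1 locus stood at 69.0, 64.9, 94.9 and 93.6 in FL 1, FL 2, KO 1 and KO 2 against 47.6 and 63.8. Its nearest end of a protein-coding gene was that of Fam3b, at 7940 bp. KO 1 and KO 2, the highest there, are the libraries labelled with Mx1-Cre, whose part in this result was not tested.

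The lists of other cell types had between 0 and 6 cohort-only regions of either kind, so that their shares rest on small counts. Monocyte and macrophage genes had 2 first-cohort-only regions of 72 (2.78%) and 6 second-cohort-only of 87 (6.90%), of which 1 and 3 lay at Irf8. Mast cell, basophil and eosinophil genes had 2 of 27 (7.41%) and 3 of 42 (7.14%), among them a region near Gata2, a factor of stem cells and mast cells, at 39.4 and 74.9 in FL 3 and KO 3. Endothelial and stromal genes had 4 of 40 (10.0%) and 5 of 50 (10.0%), with 2 first-cohort-only regions at Cxcl12, the marrow chemokine, and 2 second-cohort-only regions at Vcam1, an adhesion molecule. Megakaryocyte genes had 2 of 28 (7.14%) and 2 of 29 (6.90%), T and NK cell genes 2 of 35 and 2 of 43, erythroid genes 0 of 16 and 1 of 22, and housekeeping genes 0 of 38 and 1 of 43.

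Coverage of a list in a library, the percent of its regions with a peak minus that over all regions, was tested once per list over the libraries. Of the 15 lists, 8 did not overlap between cohorts in coverage. No such count over all regions exists for coverage, and for the rank of single regions the shares without overlap were 21.1% and 20.5%. Granulocyte and interferon genes were covered more in the second cohort, by 10.9 and 13.5 percentage points at the main setting. Dendritic, erythroid, megakaryocyte, B cell, T and NK cell, and AP-1 genes were covered more in the first, with differences of -10.3, -7.40, -5.96, -12.8, -6.72 and -7.33 points. Interferon coverage was -6.81, -3.72, -0.90 and 4.44 in FL 1, FL 2, KO 1 and KO 2 and 14.4 and 9.10 in FL 3 and KO 3. B cell coverage was -5.60, -4.38, -3.42 and -0.89 against -16.1 and -16.8. The exact two-sided permutation p was 0.133 for each of the 8 (adjusted by Benjamini-Hochberg over the 15 lists, 0.25), so 0 lists passed 0.05, before adjustment as well, as the design allows none to pass. With 4 other settings (full lists, 25000 peaks, fold ranking and summit windows), dendritic, B cell and AP-1 coverage stayed higher in the first cohort and interferon coverage in the second, the latter by as little as 1.09 points with full lists. Granulocyte coverage turned to -15.1 points with fold ranking, erythroid to 1.15 with fold ranking, megakaryocyte to 4.00 with full lists and T and NK cell to 4.33 with 25000 peaks.

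Peaks outside the autosomes separated the cohorts as well. The X chromosome held 1.73 to 1.97% of peaks in the first cohort and 2.02% and 2.00% in the second. The Y-linked genes Kdm5d, Eif2s3y, Uty and Ddx3y held 0 peaks in each first-cohort library, and 9 and 8 in FL 3 and KO 3. Xist, the RNA of the inactive X chromosome, held 3, 3, 2 and 3 peaks in FL 1, FL 2, KO 1 and KO 2 and 1 and 1 in FL 3 and KO 3. The autosomal results were not computed within 1 state of these genes, since no state occurs in both cohorts.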

How the data were processed

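ATAC-seq peak lists of 6 libraries were compared, 4 of the first cohort and 2 of the second, grouped by the genotype and title labels (not by the peak names inside the lists, which differ from the titles), with 2 held-out 4S-A libraries. Per the submitters' processing notes, the tools were featureCounts, MACS2, Picard, Bowtie2 2.2.9 and Trim Galore 0.4.4, the assembly was mm10, and parameters are not given in the sources used here. The authors deposited 1 narrowPeak list per library. The score the authors deposited is a whole number made from the −log10 q. The fold enrichment the authors deposited is a ratio over that library's local background. The −log10 p and −log10 q values were deposited by the authors as well. No value was scaled across libraries, and each was used to order peaks inside its own list.

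Autosomal lists were limited to the 50518 strongest peaks by −log10 q and merged where peaks shared 1 bp. Regions were assigned to the nearest of 20665 protein-coding genes within 100 kb in the RefSeq table of GRCm38.p6, and 292 of 295 list entries matched. Named genes were 9 set ones (Dek, Mx1, Tek, Hoxa9, Meis1, Pbx3, Mecom, Spi1 and Cebpa), those of the 15 strongest cohort-only regions, the 8 strongest at gene ends, the 8 genes with most such regions and the 8 largest shifts in each class and direction, and up to 4 genes per list, 1 region per gene and without predicted genes. Not all are printed, and some genes of the rule and of the marker set are not reported here. Members, gene lists and rules were chosen with earlier results of these data known. Calls were tested on simulated lists with planted cohort-only regions. Those lists held peaks of equal width and were not shortened, so the test did not cover differences in width or list length. Python 3.11.15, numpy 2.4.6, pandas 2.3.3, scipy 1.17.1 and matplotlib 3.10.9 were used. Alternatives changed list length, ranking, overlap, chromosomes, gene end distance and libraries.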

Additional observations from a re-analysis of the deposited data

Results flagged for a closer look

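Peaks on 4 Y-linked genes (Kdm5d, Eif2s3y, Uty and Ddx3y) lay outside the autosomal comparison. They numbered 9 in FL 3, 8 in KO 3, 9 in 4S-A 1 and 9 in 4S-A 2, and 0 in each of FL 1, FL 2, KO 1 and KO 2, which was above the level of the first-cohort controls. All Y chromosome peaks numbered 11, 14, 13 and 16 in the first cohort and 41 and 43 in FL 3 and KO 3. None of 19 measures had a library that stood apart from the other 3 in the first cohort by Dixon's criterion, which could not be applied to the 2 libraries of the second.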

How the results depend on the processing

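No paired analysis was possible because the 2 cohorts share no replicate numbers and the counts come from no fitted model. Of 186 alternative values over 20 settings, 115 stayed within 1.5 times the reported count, within its interval or in its direction, and 71 moved. Only the gene end difference between whole lists could be counted as reversed, and 0 of its 20 values were. The cause of the moves was not tested. Values below are given in the order first-cohort-only, then second-cohort-only, then regions higher in the first and in the second cohort. The gene end difference between whole lists kept its sign. The count of gene lists without overlap, 8 of 15, ranged from 7 to 12, with 11 for controls alone and 12 for knockouts alone, and which lists these were was not compared.

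Uncut lists gave 139 and 15022 regions, 1976 and 15939 ranked apart, a first-cohort-only gene end share of 7.91%, and mean 4S-A coverage of 79.6% of second-cohort-only and 19.4% of first-cohort-only regions, against 70.7% and 13.0% with equal lists. The 25000 strongest peaks gave 1595 second-cohort-only regions, gene end shares of 13.7% and 6.27%, 3640 and 3464 ranked apart and a first-cohort-only 4S-A coverage of 10.9%. Fold ranking gave 2826 first-cohort-only regions, gene end shares of 21.1% and 3.56%, 10376 higher in the first cohort, and coverage of 72.8% and 9.61% in the order second, first. Summit windows gave 2239 first-cohort-only regions, gene end shares of 23.5% and 6.52%, and coverage of 68.7% and 16.7%. A gene end distance of 500 bp gave 8.21% and 2.57%, and 2500 bp gave 17.5% and 11.8%. As shares of the regions held by the cohort, cohort-only regions were 0.405% and 19.9% with uncut lists. They were 8.89% and 10.2% with fold ranking, and 6.92% and 8.15% with summit windows.

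Settings with fewer libraries merged their lists anew, and those without FL 1 also retained longer lists, so that 2 choices changed at once. Controls alone gave 3862 and 9442 regions, gene end shares of 15.2% and 5.64%, 13834 and 13483 ranked apart, and coverage of 59.0% and 23.0%. Knockouts alone gave 5944 and 10233, 8.41% and 5.71%, 15136 and 14547, and 59.0% and 20.8%. FL 1 and KO 1 against the second cohort gave 2370 and 5101 regions, 5.39% of the latter at gene ends, 9165 higher in the second, and coverage of 73.4%. FL 1 and KO 2 gave 2536, 4859 and 9492. FL 2 and KO 1 gave 2423, 5841, 9496 and 73.8%. FL 2 and KO 2 gave 2483 and 5452, 9519 and 9862, and 72.7%.

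Leaving out 1 library at a time gave 1509 to 2444 first-cohort-only and 3769 to 6677 second-cohort-only regions, gene end shares of 9.71 to 14.0% and 4.63 to 5.30%, 7164 to 9716 and 7209 to 9129 ranked apart, and coverage of 54.6 to 72.1% of second-cohort-only and 13.1 to 24.1% of first-cohort-only regions. Without FL 3 the counts were 2444 and 6677 and 9716 ranked higher in the first cohort, and without KO 3 they were 1832 and 5511. Read depth is unknown, so a region listed in 1 cohort and not in the other may lie below the limit of the shorter or shortened list.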
